A study of Mus musculus with 12 samples.

Results

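Lysosomal enzymes and membrane proteins were followed here as a set of 32 named genes, among the 18193 genes measured in mouse yolk sacs with and without Hypb, the gene also called Setd2. The rule that chose them uses what their proteins do and no measured value, though earlier results of these data were known when it was written. They are hydrolases, helper proteins and membrane proteins of the lysosome that digest what the cell takes up, together with Tfeb, a transcription factor. All 32 were measured, and each is read here from its brightest probe set, ranked by the average of its 12 values.

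Whole yolk sacs were taken from wild type (Hypb+/+) and knockout (Hypb-/-) mouse embryos at 2 stages of gestation, given in embryonic days as E9.0 and E10.5, and total RNA was hybridised to Affymetrix mouse whole-genome expression arrays. The 4 groups, wild type and knockout at each stage, held 3 arrays each, and every array was 1 pool of 4 yolk sacs of 1 genotype. All pools carry the same strain label, 129Sv/C57BL/6, and the labels name no treatment. How the allele was made is not given in the sources used here, and pooling hides differences between single yolk sacs. By the design text the E9.0 mutants had no severe visible defect, while those at E10.5 were close to death. The comparisons ask how the knockout differs from wild type at each stage, whether that difference depends on stage, and how each genotype differs between the stages.

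The lysosome is the acidic compartment in which proteins, glycans, lipids and other material from endocytosis and autophagy are broken down. Its soluble enzymes are tagged with mannose 6-phosphate and carried there by receptors, a proton pump acidifies the lumen, and highly glycosylated membrane proteins line it. TFEB and its relatives switch on many of these genes through a short promoter element whose core is CACGTG, and they are held in the cytoplasm when the kinase mTORC1 is active on the lysosome surface. In the yolk sac, the visceral endoderm takes up maternal proteins and lipoproteins and digests them in its lysosomes to feed the embryo.

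The letters upstream of the genes are shown first, because the element just named lies there in some members and not in others. RefSeq promoter windows (build GRCm38.p6) were matched by symbol for 27 of the 32 genes. Ctsb, Ctsh, Galns, Asah1 and Npc1 are the others. The motif CACGTG, which reads the same on both strands, was searched in the 250 bases upstream of each start. It was found in 11 of the 27 (40.7%), against 6.86% of the 27025 gene symbols with a window. The 11 were Arsa, Ctsa, Ctsd, Ctsl, Gaa, Gla, Glb1, Lamp1, Lgmn, Mcoln1 and Naglu. The longer form GTCACGTG, searched on both strands and containing the same core, was present in 33.3% of the 27 and in 2.11% of all symbols. Printed below are the windows of the 5 genes called in a knockout comparison (Gusb, Tpp1, Glb1, Neu1 and Lipa), and those of Lamp1, which holds 4 copies of the motif, and Gla, which holds 2. Each runs 5′ to 3′ on the gene's own strand and ends at the base before the start. Capitals mark CACGTG.
Gusb, chr5:130003050-130003299, minus strand: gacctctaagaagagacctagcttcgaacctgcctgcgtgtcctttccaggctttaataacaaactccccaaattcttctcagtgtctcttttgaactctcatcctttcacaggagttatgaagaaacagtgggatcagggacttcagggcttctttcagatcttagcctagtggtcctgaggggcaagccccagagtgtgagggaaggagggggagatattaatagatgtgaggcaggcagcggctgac
Tpp1, chr7:105752236-105752485, minus strand: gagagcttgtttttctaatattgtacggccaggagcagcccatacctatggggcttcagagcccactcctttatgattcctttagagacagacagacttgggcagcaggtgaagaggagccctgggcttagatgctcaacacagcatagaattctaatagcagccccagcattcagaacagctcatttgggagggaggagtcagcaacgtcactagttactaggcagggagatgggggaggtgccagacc
Glb1, chr9:114400828-114401077, plus strand: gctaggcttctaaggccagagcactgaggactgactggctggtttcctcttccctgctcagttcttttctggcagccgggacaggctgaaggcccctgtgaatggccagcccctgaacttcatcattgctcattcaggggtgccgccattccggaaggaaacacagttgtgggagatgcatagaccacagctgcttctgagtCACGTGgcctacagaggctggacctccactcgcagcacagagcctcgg
Neu1, chr17:34931003-34931252, plus strand: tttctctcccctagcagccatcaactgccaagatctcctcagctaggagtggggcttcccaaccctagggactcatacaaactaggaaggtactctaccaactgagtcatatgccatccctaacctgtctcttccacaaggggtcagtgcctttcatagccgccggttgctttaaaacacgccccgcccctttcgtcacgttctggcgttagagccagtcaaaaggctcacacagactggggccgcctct
Lipa, chr19:34527475-34527724, minus strand: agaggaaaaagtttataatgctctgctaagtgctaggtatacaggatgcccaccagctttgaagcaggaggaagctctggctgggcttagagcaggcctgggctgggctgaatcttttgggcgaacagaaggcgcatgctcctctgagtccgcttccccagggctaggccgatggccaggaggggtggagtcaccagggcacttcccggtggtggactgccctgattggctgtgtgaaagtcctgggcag
Lamp1, chr8:13158911-13159160, plus strand: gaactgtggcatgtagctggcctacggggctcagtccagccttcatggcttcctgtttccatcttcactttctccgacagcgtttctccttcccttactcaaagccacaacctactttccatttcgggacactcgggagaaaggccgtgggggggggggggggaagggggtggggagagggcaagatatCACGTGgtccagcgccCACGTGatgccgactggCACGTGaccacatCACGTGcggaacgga
Gla, chrX:134601006-134601255, minus strand: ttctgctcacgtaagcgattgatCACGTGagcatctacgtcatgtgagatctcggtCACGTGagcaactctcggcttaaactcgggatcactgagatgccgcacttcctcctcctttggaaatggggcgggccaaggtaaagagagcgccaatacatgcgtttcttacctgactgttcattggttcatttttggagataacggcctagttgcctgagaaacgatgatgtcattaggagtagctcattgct

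Of the 5 called genes, Glb1 alone had the letters CACGTG in this window, with the motif's first base 48 bases upstream of the start. In Lamp1 the 4 copies began 61, 45, 28 and 15 bases upstream. A match is a description of the letters and not of binding.

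Values throughout are log2 RMA values, a scale on which a step of 1 is a doubling; changes are differences of group means with the standard error (SE) of the fit. A gene is said to rise or fall where its Benjamini-Hochberg adjusted p from limma, over all 18193 genes, was under 0.05. Values ran from 2.03 to 14.49 and array medians from 5.27 to 5.34. Of the 32 genes, 31 had a 12-array mean of at least 6, and the remaining gene, Naglu, averaged 5.44. Setd2 itself fell by 1.29 at E9.0 (SE 0.13, adjusted p = 0.00207) and by 0.83 at E10.5 (SE 0.13, adjusted p = 0.00294), and its knockout and wild type arrays did not overlap at either stage. Of 14 visceral endoderm markers, Afp, Ttr and Apoa1 were the brightest, with averages of 13.99, 14.11 and 13.94. Alb averaged 5.59, and the rest 8.20 (Gata4) or more.

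Arrays did not all stand alike. Spike and hybridisation controls set replicate 3 apart at each stage: BioC minus BioB was 0.15 and 0.24 on the E9.0 replicate 3 arrays against 1.70 to 1.86 on the other E9.0 arrays, and the 3′ minus 5′ difference of the dap spike was 1.65 and 1.63 on the E10.5 replicate 3 arrays against 0.87 to 1.18. The labels name no such batch. For the 32 genes, 1 array also stood apart from its group. Their median deviation from the E10.5 wild type mean was −0.22 in knockout replicate 1 and −0.27 in knockout replicate 2, with 28 and 27 genes below that mean, but 0.08 in knockout replicate 3, with 10 below. Results that rest on that array are given with and without it.

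At E9.0 a single gene of the 32 changed. Gusb, which encodes beta-glucuronidase and removes glucuronic acid from glycosaminoglycans, fell by 0.73 (SE 0.13, adjusted p = 0.0222), a level 1.66-fold lower. In bulk samples fewer cells of a type and less RNA per cell cannot be told apart. Of all genes, 1.18% were called at E9.0 (0.55% higher and 0.632% lower), and 1 of 32 is 3.12%. Of the 10085 genes with a mean of at least 6, 1.96% were called. The median change of the 32 was 0.00, with 16 below 0 and 15 above, against −0.01 for all genes. Knockout and wild type arrays were fully separate for 5 of the 32, with Lipa and Psap higher and Gusb, Glb1 and Tpp1 lower. Among all genes 18.0% were separate, 8.56% higher and 9.42% lower.

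In the Gusb data at E9.0, wild type arrays read 7.91, 7.98 and 8.30 and knockout arrays 7.19, 7.42 and 7.39. All 3 knockout pools lay below all 3 wild type pools. At E10.5 the wild type arrays read 7.89, 7.70 and 7.78 and the knockout arrays 7.52, 7.35 and 7.73, so the groups overlapped, and the difference of −0.26 (SE 0.13, adjusted p = 0.295) was not called. The knockout difference at E10.5 minus that at E9.0 was 0.47 (SE 0.18, adjusted p = 0.487), so the stages were not shown to differ. The E9.0 call was lost when any of 4 arrays was left out: knockout replicate 1 (adjusted p = 0.117) or 3 (adjusted p = 0.0584), or wild type replicate 2 (adjusted p = 0.0766) or 3 (adjusted p = 0.0545). A second, dimmer Gusb probe set gave −0.45 (SE 0.19, adjusted p = 0.441 over all probe sets), and the mean of both gave −0.59 (adjusted p = 0.0629). Under either of these probe set rules the 1 gene called at E9.0 was Tpp1 instead. In the replicate 1 and 2 arrays alone Gusb differed by −0.64 (adjusted p = 0.0683), and the replicate 3 pair differed by −0.91.

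**Figure D1:**
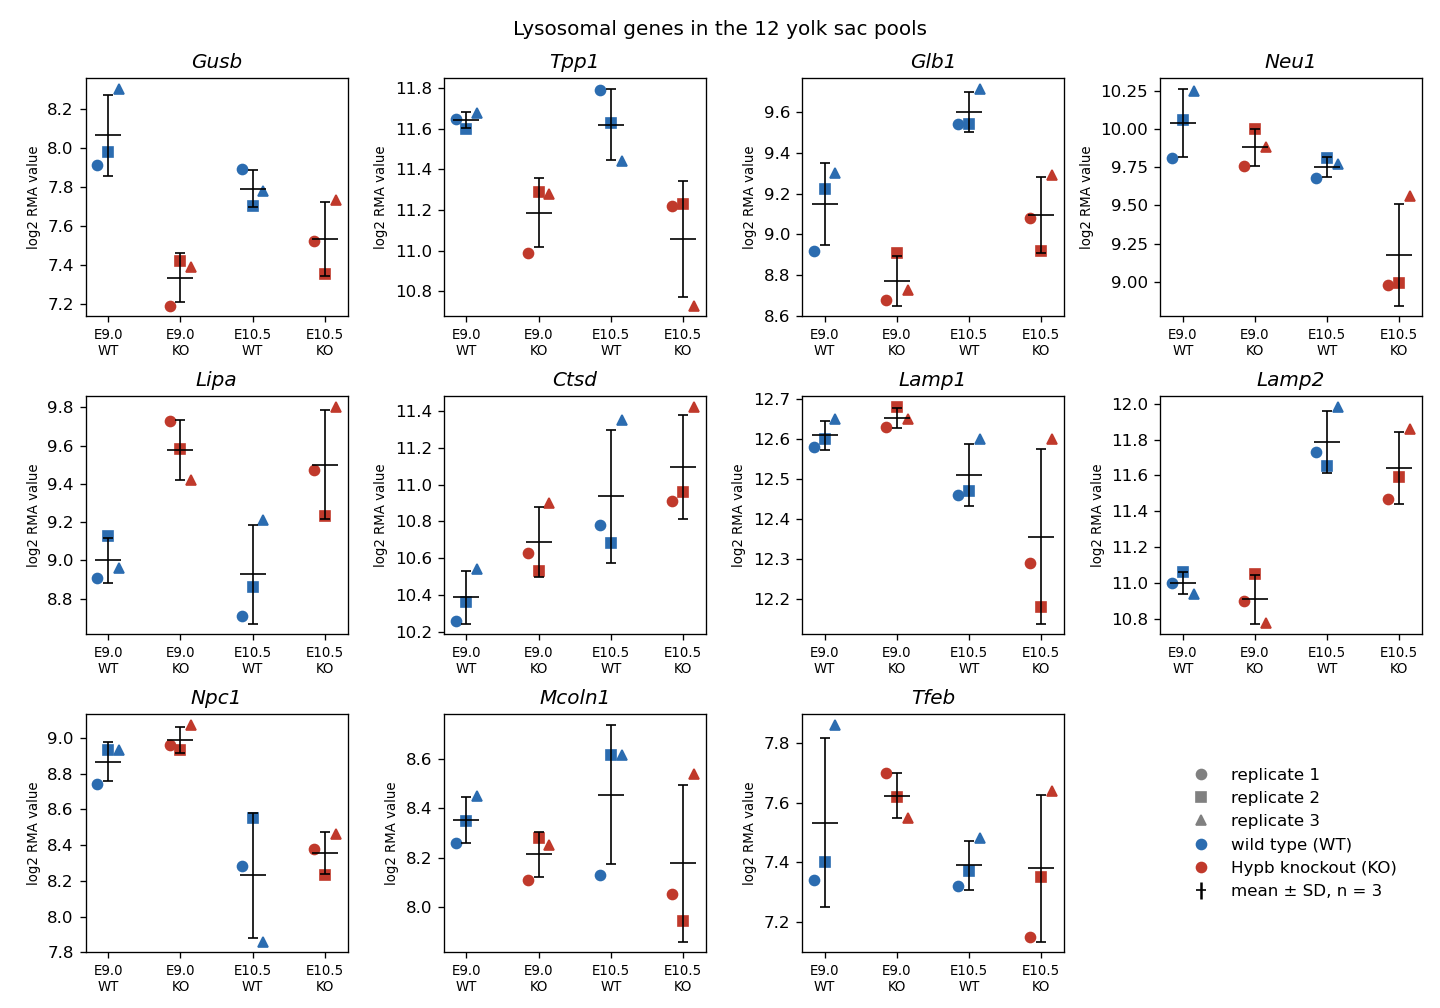
Log2 RMA values (vertical axis, scaled separately for each gene) of 11 lysosomal genes in the 12 yolk sac pools by group, with symbol shape giving the replicate, colour the genotype, and bars the mean ± SD of 3 arrays. The knockout arrays of Gusb at E9.0 (7.19 to 7.42) and of Glb1, Tpp1 and Neu1 at E10.5 lie below all wild type arrays of the stage, those of Lipa lie above, and Lamp2 is higher at E10.5 in both genotypes.

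At E10.5 there were 4 called genes among the 32 (12.5%), against 7.28% of all genes: Tpp1, Glb1 and Neu1 fell, and Lipa rose. Over all genes, 3.16% were called lower and 4.12% higher. Under a filter to the 10085 genes with a mean of at least 6, 9.96% of genes were called, and 5 of the 31 lysosomal genes kept. On the same arrays the mean log2 level of 14 visceral endoderm markers was 11.16 to 11.33 in the knockout and 11.44 on every wild type array. Without Alb, which fell by 2.22, the mean of the other 13 was 11.56 to 11.73 in the knockout and 11.69 to 11.72 in wild type, so the genotypes overlapped (a comparison chosen after seeing the data). The median deviation of all 14 from the wild type mean was −0.18, −0.17 and −0.08 in knockout replicates 1, 2 and 3. In the wild type arrays it was −0.03, −0.01 and 0.02. Genotypes were fully separate for 7 of the 14 in the lower direction and 1 in the higher. The part of these marker levels in the 4 calls was not tested. The median change of the 32 was −0.14, with 27 of 32 below 0 (84.4%), against −0.01 and 52.4% below 0 for all genes. Without E10.5 knockout replicate 3 the median was −0.26 and 4 genes fell with none rising: Glb1 and Neu1 as before, and Hexa and Ctsz. With the mean of all probe sets of a gene 6 of the 32 were called, Scarb2 higher and Ctsb, Ctsh, Ctsl, Glb1 and Tpp1 lower, of which Tpp1 and Glb1 are shared with the 4. Fitted on the 6 arrays of the stage alone, none of the 4 was called (adjusted p = 0.106 for Tpp1, 0.0657 for Glb1, 0.0989 for Neu1 and 0.128 for Lipa), and in the same fit at E9.0 Gusb was not either (adjusted p = 0.0622). Within replicates 1 and 2 the median was −0.22 with 27 below 0, while the replicate 3 pair gave −0.02 with 19 below 0. Full separation of the genotypes was seen for 8 of the 32, Lipa and Scarb2 higher and Asah1, Ctsh, Ctsl, Glb1, Neu1 and Tpp1 lower. It was seen for 22.8% of all genes, 11.5% higher and 11.3% lower.

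Of the 9 proteases, 8 had changes below 0 at E10.5, with a median of −0.12, and Tpp1 fell. Tpp1, the peptidase that cuts tripeptides from the ends of proteins, read 11.79, 11.63 and 11.44 in the E10.5 wild type arrays and 11.22, 11.23 and 10.73 in the knockout arrays. Every knockout pool was below every wild type pool, and the fall was 0.56 (SE 0.14, adjusted p = 0.0343), or 1.47-fold. At E9.0 the wild type arrays read 11.65, 11.60 and 11.68 and the knockout arrays 10.99, 11.29 and 11.28. These groups did not overlap either, and the difference was −0.46 (SE 0.14, adjusted p = 0.170), which passed the threshold with replicate 3 as a batch block (adjusted p = 0.0401) or when probe sets were averaged (−0.75, adjusted p = 0.00407). The second Tpp1 probe set fell at both stages, by 1.05 at E9.0 (SE 0.15, adjusted p = 0.0126 over the 34945 probe sets) and by 1.04 at E10.5 (SE 0.15, adjusted p = 0.00251). With the brightest probe set, the E10.5 call was lost without E9.0 wild type replicate 2 (adjusted p = 0.0512), E10.5 wild type replicate 1 (−0.47, adjusted p = 0.137) or 2 (adjusted p = 0.105), or E10.5 knockout replicate 3 (−0.40, adjusted p = 0.0753). The Tpp1 difference was −0.48 (adjusted p = 0.0457) within replicates 1 and 2 and −0.71 in the replicate 3 pair.

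Ctsd, the aspartic protease cathepsin D, was not called in either knockout comparison. Its E9.0 values were 10.26, 10.36 and 10.54 in wild type and 10.63, 10.53 and 10.90 in knockout, a difference of 0.30 (SE 0.18, adjusted p = 0.597). Its E10.5 values were 10.78, 10.68 and 11.35 in wild type and 10.91, 10.96 and 11.42 in knockout, a difference of 0.16 (SE 0.18, adjusted p = 0.719). In each stage the genotypes overlapped, and replicate 3 gave the highest value of each group. The 95% interval of the E10.5 difference ran from −0.24 to 0.56.

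The other 7 proteases did not pass the threshold on their brightest probe sets. Ctsh, an aminopeptidase cathepsin, was nearest at E10.5: its wild type arrays read 12.52, 12.39 and 12.57 and its knockout arrays 12.01, 12.22 and 12.19, a difference of −0.35 (SE 0.10, adjusted p = 0.0528) with no overlap, and its second probe set fell by 0.42 (adjusted p = 0.0377 over all probe sets). The brightest Ctsh probe set passed the threshold under a filter on dim genes (adjusted p = 0.0432), median centring (0.0345), a trended and robust prior (0.0206), replicate 3 as a batch block (0.0387) and without E9.0 knockout replicate 1 (0.0466). Ctsz passed it without E10.5 knockout replicate 3 (−0.39, adjusted p = 0.0486). For Ctsa, Ctsb, Ctsc, Ctsl, Ctsz and Lgmn the E10.5 differences on the brightest probe sets lay between −0.21 and −0.01. The dimmer Ctsc probe sets, ranked 2 and 3 in brightness, differed by −0.85 (SE 0.23, adjusted p = 0.0547 over all probe sets) and −0.66 (SE 0.19, adjusted p = 0.0666). Neither was called, and the brightest Ctsc probe set differed by −0.01. Ctsl fell on its second, dimmer probe set by 0.77 (SE 0.17, adjusted p = 0.0211), against −0.10 on the brightest.

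Ctsb, encoding the cysteine protease cathepsin B, has 5 probe sets that disagreed. Its brightest 2 differed by −0.06 and −0.09 at E10.5 (SE 0.11 and 0.13). Those ranked 3 and 4 in brightness fell by 0.76 (SE 0.09, adjusted p = 0.00091) and 0.86 (SE 0.11, adjusted p = 0.00119), and the dimmest differed by 0.25 (SE 0.18, adjusted p = 0.537). The knockout level of Ctsb therefore depends on which probe set is read, and the arrays do not say which transcript forms each one reports. At E9.0 the same middle probe sets differed by −0.32 and −0.46, and neither was called.

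**Figure D2:**
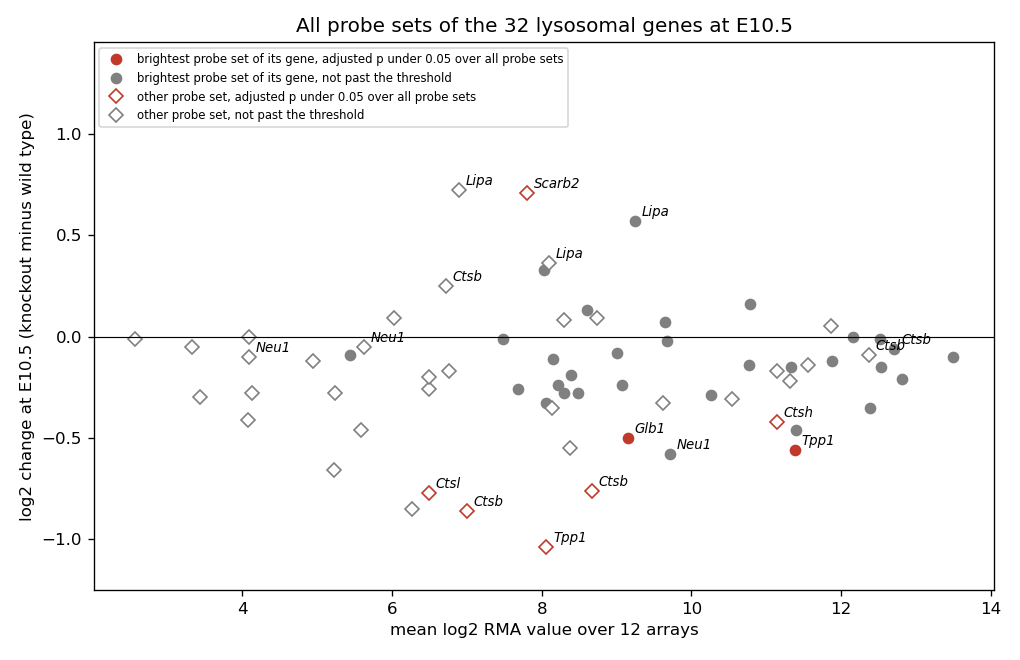
Knockout minus wild type log2 change at E10.5 (vertical axis) against the mean log2 RMA value over 12 arrays (horizontal axis) for the 69 probe sets of the 32 genes, with filled circles for the brightest probe set of a gene, open diamonds for others, and red for an adjusted p under 0.05 over all 34945 probe sets. The second Tpp1 probe set (−1.04), 2 Ctsb probe sets (−0.86 and −0.76) and the second Ctsl probe set (−0.77) are the lowest red points, while the Neu1 and Lipa brightest probe sets are grey at adjusted p values of 0.0591 and 0.0645 on this larger table.

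Glycosidases, which strip sugars from glycoproteins, glycolipids and glycosaminoglycans, were also 9 in number. At E10.5 all 9 had changes below 0 over all arrays, from −0.58 to −0.02 with a median of −0.28. Of all genes 52.4% were below 0. Glb1 and Neu1 fell (22.2% of the 9), against 7.28% of all genes called. In the replicate 3 pair Naglu (0.61), Man2b1 (0.24) and Gaa (0.05) were above 0 and the others below. Within replicates 1 and 2 Manba (0.04) was above 0 and the others below. At E9.0 there were 6 of 9 below 0, with a median of −0.12, against 51.1% of all genes. Gusb fell, against 1.18% of all genes called.

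Glb1, the beta-galactosidase of ganglioside and keratan sulfate breakdown, read 9.54, 9.54 and 9.71 in the E10.5 wild type arrays and 9.08, 8.92 and 9.29 in the knockout arrays. The groups were apart, and the fall was 0.50 (SE 0.13, adjusted p = 0.0320), or 1.41-fold. At E9.0 the wild type values were 8.92, 9.22 and 9.30 and the knockout values 8.68, 8.91 and 8.73, again without overlap, with a difference of −0.37 (SE 0.13, adjusted p = 0.210). Glb1 has a single probe set here. Its E10.5 call was lost without any one of 5 E10.5 arrays, knockout replicates 1 and 2 or wild type replicates 1, 2 and 3, with adjusted p values from 0.0745 to 0.109. It differed by −0.54 (adjusted p = 0.0440) within replicates 1 and 2 and by −0.42 in the replicate 3 pair.

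Neu1, the sialidase that works in a complex with the products of Glb1 and Ctsa, read 9.68, 9.81 and 9.77 in the E10.5 wild type arrays and 8.98, 8.99 and 9.56 in the knockout arrays. Knockout replicates 1 and 2 were far below wild type and replicate 3 just below it. The fall was 0.58 (SE 0.16, adjusted p = 0.0430), or 1.49-fold, and was −0.76 (adjusted p = 0.0134) within replicates 1 and 2 and −0.21 in the replicate 3 pair. At E9.0 the values were 9.81, 10.06 and 10.25 in wild type and 9.76, 10.00 and 9.88 in knockout, which overlapped, with a difference of −0.16 (SE 0.16, adjusted p = 0.792). The call was kept in 3 of the 12 fits that left out 1 array, those without E9.0 wild type replicate 1 or 3 or E10.5 knockout replicate 3, and adjusted p values reached 0.168 in the others. The other Neu1 probe sets differed by −0.05 and −0.10 at E10.5, and the mean of all 3 gave −0.24 (adjusted p = 0.170). Ctsa, whose product protects the others in that complex, differed by −0.14 (SE 0.19, adjusted p = 0.764).

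For Hexa, the alpha subunit of beta-hexosaminidase, E10.5 wild type arrays read 11.54, 11.67 and 11.76 and knockout arrays 11.03, 10.84 and 11.71. Knockout replicate 3 lay among the wild type arrays. The difference was −0.46 (SE 0.18, adjusted p = 0.154) over all arrays and −0.72 (adjusted p = 0.00367) without that array. Man2b1, an alpha-mannosidase, differed by −0.24 (SE 0.14, adjusted p = 0.405), by −0.48 (adjusted p = 0.0468) within replicates 1 and 2, and by 0.24 in the replicate 3 pair. Gla, the alpha-galactosidase, differed by −0.33 (SE 0.12, adjusted p = 0.128). Gaa, the glycogen-degrading glucosidase, differed by −0.28, Naglu, a glucosaminidase of heparan sulfate breakdown, by −0.09, and Manba, a beta-mannosidase, by −0.02, none called.

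Of the 4 enzymes that act on lipids or lipid-linked groups, only Lipa was called. Lipa encodes acid lipase, which hydrolyses cholesteryl esters and triglycerides delivered by lipoproteins. Its E10.5 values were 8.71, 8.86 and 9.21 in wild type and 9.47, 9.23 and 9.80 in knockout. The highest wild type array, at 9.21, was just under the lowest knockout array, at 9.23. The rise was 0.57 (SE 0.16, adjusted p = 0.0473), or 1.49-fold. At E9.0 the values were 8.91, 9.13 and 8.96 in wild type and 9.73, 9.58 and 9.42 in knockout, apart from each other, with a difference of 0.58 (SE 0.16, adjusted p = 0.112). That E9.0 difference passed the threshold with replicate 3 as a batch block (adjusted p = 0.0195).

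The Lipa rise had the highest adjusted p of the 4 calls at E10.5. It was kept in 3 of the 12 fits that left out 1 array, those without E9.0 knockout replicate 3, E10.5 knockout replicate 2 or E10.5 wild type replicate 3, and adjusted p values in the others ran from 0.0574 to 0.181. It was 0.56 (adjusted p = 0.0355) within replicates 1 and 2 and 0.59 in the replicate 3 pair. Its other probe sets differed by 0.36 (SE 0.26) and 0.72 (SE 0.35), in the same direction and not called, and the mean of all 3 gave 0.55 (adjusted p = 0.0773). Ppt1, which removes fatty acids from proteins, differed by 0.20 at E9.0 and −0.19 at E10.5. Asah1, the acid ceramidase, differed by −0.29 at E10.5 (SE 0.11, adjusted p = 0.158), and Smpd1, the acid sphingomyelinase, by −0.08.

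Sulfatases and carriers did not pass the threshold at either stage by limma. Arsa, which removes sulfate from sulfatide, differed by −0.35 (SE 0.19) at E9.0 and −0.24 (SE 0.19) at E10.5, and Galns, a sulfatase of keratan sulfate breakdown, by −0.01 and −0.11. Psap, the precursor of the saposins that present lipids to their enzymes, differed by 0.25 (SE 0.22) and 0.07 (SE 0.22). Its E10.5 knockout arrays read 9.52, 9.16 and 10.26 around wild type arrays of 9.38, 9.81 and 9.53, and without the highest, replicate 3, the difference was −0.23. Npc2, which hands cholesterol to the membrane protein NPC1, differed by 0.06 and 0.00. None of these 4 genes reached an unadjusted p under 0.05 in either comparison.

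On brightest probe sets and all arrays no membrane protein of the 5 was called in a knockout comparison by limma, and 1, Scarb2, had an unadjusted p under 0.05, at E10.5. Lamp1, an abundant glycoprotein of the lysosomal membrane, read 12.58, 12.60 and 12.65 in wild type and 12.63, 12.68 and 12.65 in knockout at E9.0, a difference of 0.04 (SE 0.11, adjusted p = 0.943). At E10.5 the wild type arrays read 12.46, 12.47 and 12.60 and the knockout arrays 12.29, 12.18 and 12.60, a difference of −0.15 (SE 0.11, adjusted p = 0.488). Knockout replicates 1 and 2 lay below wild type and replicate 3 level with its highest array. The 95% interval at E10.5 ran from −0.39 to 0.08.

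Lamp2, the second of these glycoproteins and one that takes part in autophagy, read 11.00, 11.06 and 10.94 in wild type and 10.90, 11.05 and 10.78 in knockout at E9.0. At E10.5 it read 11.73, 11.65 and 11.98 in wild type and 11.47, 11.59 and 11.86 in knockout. The genotypes overlapped at both stages, with differences of −0.09 (SE 0.12, adjusted p = 0.875) and −0.15 (SE 0.12, adjusted p = 0.589).

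Scarb2 carries the enzyme glucocerebrosidase to the lysosome. Its E10.5 wild type arrays read 8.08, 8.05 and 8.14 and its knockout arrays 8.41, 8.17 and 8.69, without overlap, a difference of 0.33 (SE 0.13, adjusted p = 0.154). The second Scarb2 probe set rose by 0.71 (SE 0.18, adjusted p = 0.0412 over all probe sets). Scarb2 was called with the mean of its probe sets (0.52, adjusted p = 0.0340) and without E10.5 knockout replicate 2 (0.46, adjusted p = 0.0435). On the brightest probe set it differed by 0.22 (adjusted p = 0.346) within replicates 1 and 2 and by 0.55 in the replicate 3 pair.

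Npc1, which moves cholesterol out of the lysosome, read 8.74, 8.93 and 8.93 in wild type and 8.96, 8.93 and 9.07 in knockout at E9.0, a difference of 0.12 (SE 0.15, adjusted p = 0.850). At E10.5 it read 8.28, 8.55 and 7.86 in wild type and 8.38, 8.23 and 8.46 in knockout, a difference of 0.13 (SE 0.15, adjusted p = 0.723). The lowest array was a wild type one, replicate 3, and without it the difference was −0.06.

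Mcoln1, the lysosomal calcium channel TRPML1, read 8.26, 8.35 and 8.45 in wild type and 8.11, 8.28 and 8.25 in knockout at E9.0, and 8.13, 8.62 and 8.62 in wild type and 8.05, 7.94 and 8.54 in knockout at E10.5. The genotypes overlapped at both stages, and the differences were −0.14 (SE 0.16, adjusted p = 0.836) and −0.28 (SE 0.16, adjusted p = 0.384). Tfeb read 7.34, 7.40 and 7.86 in wild type and 7.70, 7.62 and 7.55 in knockout at E9.0, and 7.32, 7.37 and 7.48 in wild type and 7.15, 7.35 and 7.64 in knockout at E10.5. Its differences were 0.09 and −0.01 (SE 0.15 for each; adjusted p = 0.902 and 0.983), and the groups overlapped.

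**Figure D3:**
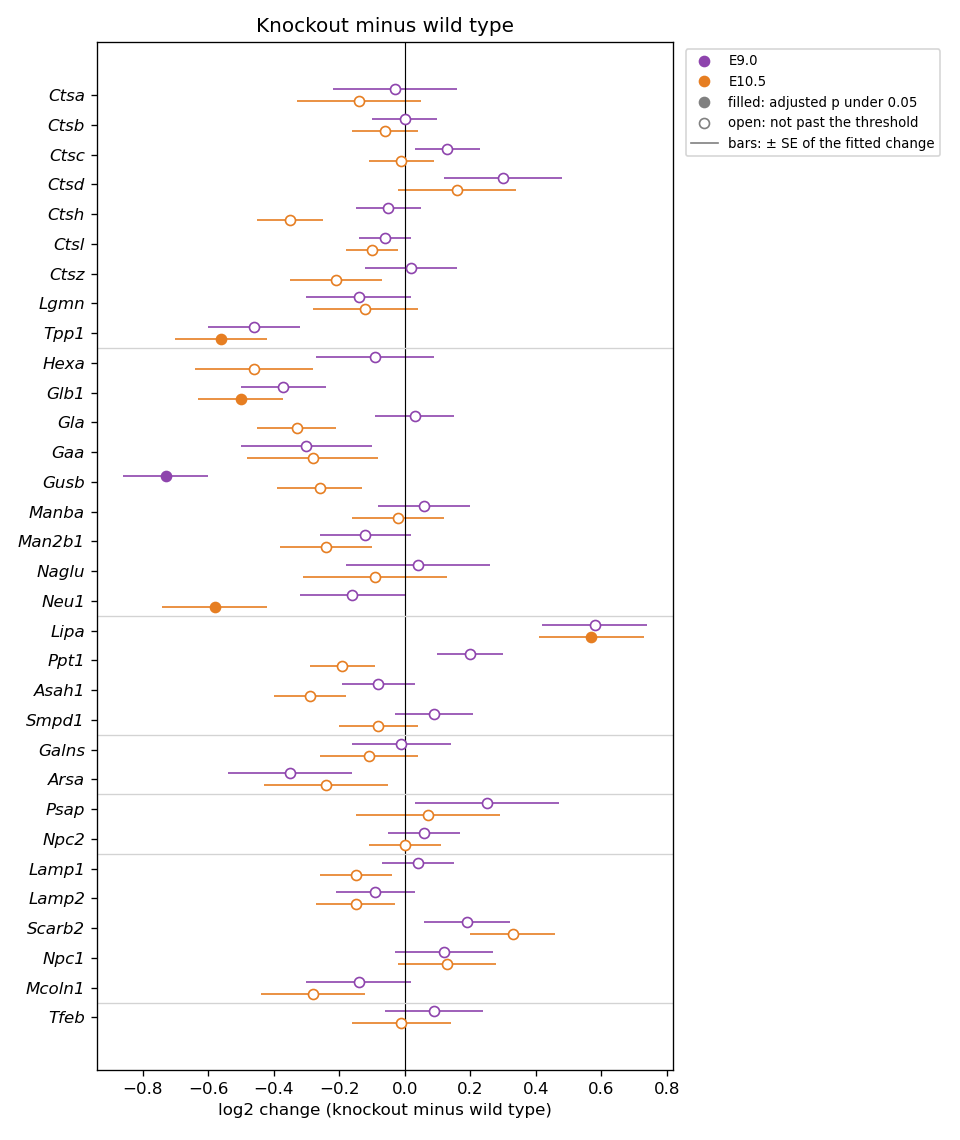
Knockout minus wild type log2 change (horizontal axis) of the 32 genes at E9.0 and E10.5, grouped by role from proteases at the top to Tfeb at the bottom, with bars of ± SE and filled symbols for an adjusted p under 0.05. Filled symbols mark Gusb at E9.0 (−0.73) and Tpp1, Glb1, Neu1 and Lipa at E10.5 (−0.56, −0.50, −0.58 and 0.57). Over all arrays the 9 glycosidases lie below 0 at E10.5, though in the replicate 3 pair Naglu, Man2b1 and Gaa were above 0.

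The sign of the knockout difference was below 0 at both stages for 16 of the 32 genes and above 0 at both for 5. None of the 32 had a knockout difference that changed between the stages by limma, where 0.187% of all genes did, and 2 had an unadjusted p under 0.05, Gusb (0.47) and Ppt1 (−0.39, adjusted p = 0.416). The median of that difference was −0.12 over the 32 genes and 0.00 over all genes. Genes with CACGTG in the window and those without it had E10.5 knockout medians of −0.15 (11 genes) and −0.12 (16 genes), which is given as a description with no test.

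Between E9.0 and E10.5, 8 of the 32 genes changed in the wild type yolk sac (25.0%, against 22.2% of all genes) and 8 in the knockout (25.0%, against 23.6%). The share was close to that of all genes in both genotypes. Of all genes, 13.4% rose and 8.86% fell in wild type, and 14.4% rose and 9.17% fell in the knockout. In wild type Gla, Lamp2, Asah1, Ctsd, Glb1 and Ppt1 rose and Arsa and Npc1 fell. In the knockout Lamp2, Scarb2, Asah1 and Gla rose, and Neu1, Npc1, Arsa and Man2b1 fell. The 5 genes called in both, Gla, Lamp2, Asah1, Npc1 and Arsa, are 62.5% of each list and had the same sign in each.

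Lamp2 rose by 0.79 in wild type (SE 0.12, adjusted p = 0.000768) and 0.73 in the knockout (SE 0.12, adjusted p = 0.00121), about 1.73-fold and 1.66-fold, with every E10.5 array above every E9.0 array. All 4 of its probe sets rose in both genotypes, by 0.71 to 1.34 in wild type and 0.63 to 1.11 in the knockout. Lamp1 differed by −0.10 (adjusted p = 0.572) in wild type and −0.30 (adjusted p = 0.0627) in the knockout. The knockout difference was −0.42 without E10.5 knockout replicate 3 (adjusted p = 0.00607) and −0.42 within replicates 1 and 2 (adjusted p = 0.0124). It also passed the threshold with the dim-gene filter (0.0428), median centring (0.0331), a trended and robust prior (0.0282), a replicate block (0.0369) and replicate 3 as a batch block (0.0171).

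Gla read 7.63, 7.76 and 7.71 at E9.0 and 8.46, 8.55 and 8.62 at E10.5 in wild type, and 7.78, 7.73 and 7.67 and then 8.07, 8.51 and 8.07 in the knockout. It rose by 0.84 (SE 0.12, adjusted p = 0.000359) and 0.49 (SE 0.12, adjusted p = 0.00943), and its E10.5 arrays were above its E9.0 arrays in each genotype. The test of the difference between these rises gave −0.35 (SE 0.17, adjusted p = 0.614). Its dimmer probe sets differed by 0.15 and 0.00 in wild type and were not called, and with the mean of its probe sets both calls were lost (0.33, adjusted p = 0.126, in wild type and 0.27, adjusted p = 0.208, in the knockout).

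Asah1 rose by 0.70 (SE 0.11, adjusted p = 0.000791) in wild type and 0.50 (SE 0.11, adjusted p = 0.00603) in the knockout. Npc1 fell by 0.64 (SE 0.15, adjusted p = 0.00793) and 0.63 (SE 0.15, adjusted p = 0.00805). These calls, like those of Lamp2 and Gla, were kept whichever array was left out. Arsa fell by 0.70 (SE 0.19, adjusted p = 0.020) in wild type and 0.59 (SE 0.19, adjusted p = 0.0424) in the knockout, and its calls were kept in 9 and 4 of the 12 fits that left out 1 array.

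Neu1 fell by 0.70 in the knockout (SE 0.16, adjusted p = 0.00609) and differed by −0.29 in wild type (SE 0.16, adjusted p = 0.228). The test of the difference between these gave −0.42 (SE 0.22, adjusted p = 0.673). Its second probe set fell in wild type, by 1.04 (adjusted p = 0.00177), and differed by −0.50 in the knockout (adjusted p = 0.0663). Scarb2 rose by 0.52 in the knockout (SE 0.13, adjusted p = 0.0107), and its second probe set rose in both genotypes, by 0.97 in wild type and 1.20 in the knockout. Man2b1 fell by 0.51 in the knockout (SE 0.14, adjusted p = 0.0210), a call kept in 8 of the 12 fits that left out 1 array, with a value down to −0.36, and lost in the fit on the 2 knockout groups alone (adjusted p = 0.0652). In wild type Man2b1 differed by −0.39 (SE 0.14, adjusted p = 0.0703), with no overlap of the stages. It was called there in the fit on the 2 wild type groups alone (adjusted p = 0.0313) and with the mean of its probe sets (−0.33, adjusted p = 0.0318).

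Ctsd rose by 0.55 in wild type (SE 0.18, adjusted p = 0.0489), a call kept in 3 of the 12 fits that left out 1 array, and the value was 0.34 without E10.5 wild type replicate 3. In the knockout Ctsd differed by 0.41 (SE 0.18, adjusted p = 0.133), with no overlap of the stages. That difference was called with replicate 3 as a batch block (adjusted p = 0.00311), a replicate block (0.0101) and within replicates 1 and 2 (0.36, adjusted p = 0.0299). The next 2 rises are also in wild type. Glb1 rose by 0.45 (SE 0.13, adjusted p = 0.0222) and Ppt1 by 0.38 (SE 0.10, adjusted p = 0.0132), each kept in 10 of 12. In the knockout Glb1 differed by 0.32 and Ppt1 by −0.01, but the second Ppt1 probe set rose there by 0.47 (adjusted p = 0.0237 over all probe sets). Mcoln1 differed by 0.10 in wild type and −0.04 in the knockout, and Tfeb by −0.14 and −0.24. Npc2 differed by 0.31 (adjusted p = 0.0557) in wild type and 0.24 (adjusted p = 0.122) in the knockout. Its second probe set rose in both, by 0.32 (adjusted p = 0.0236 over all probe sets) and 0.36 (adjusted p = 0.0134). The Npc2 probe sets ranked 3 and 4 in brightness were not called.

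**Figure D4:**
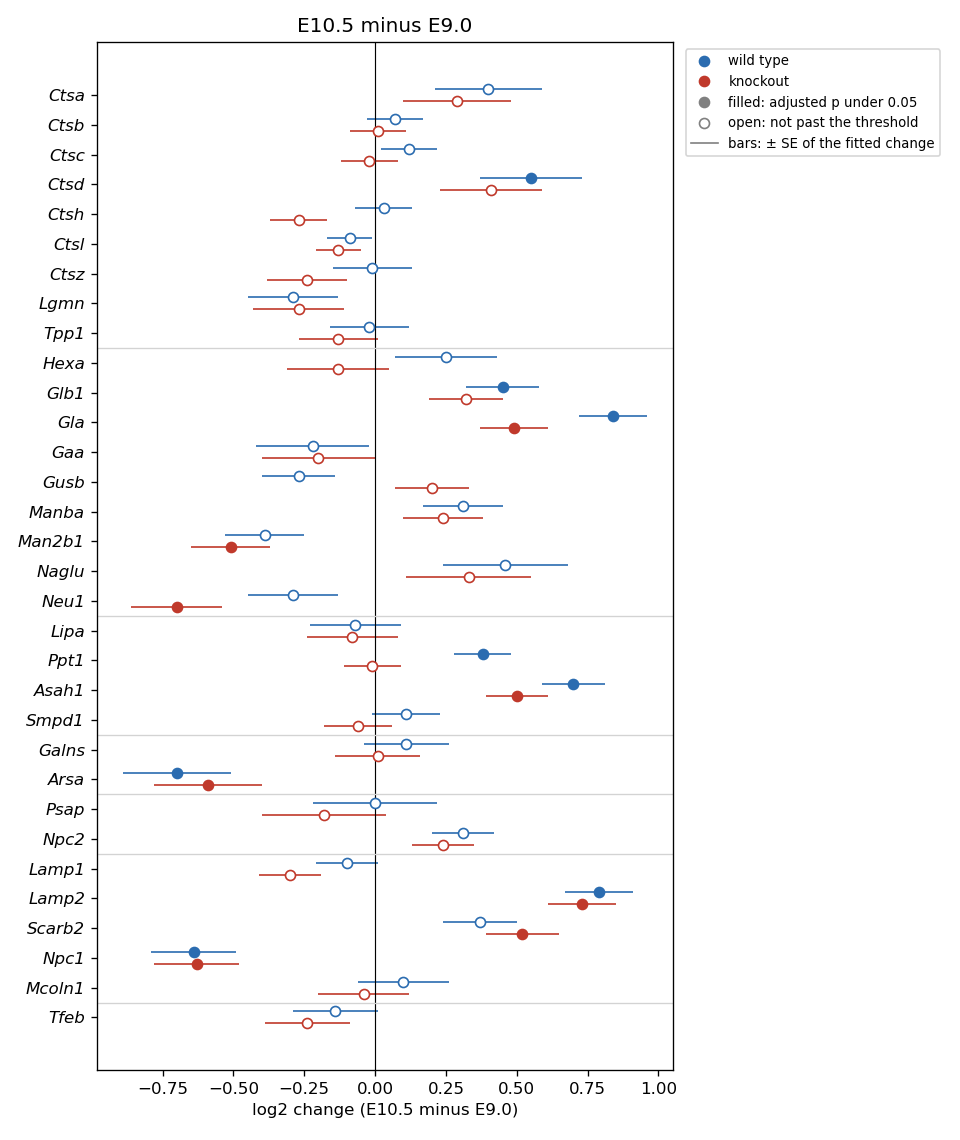
E10.5 minus E9.0 log2 change (horizontal axis) of the 32 genes in wild type and knockout, in the same order by role, with bars of ± SE and filled symbols for an adjusted p under 0.05. Lamp2, Gla and Asah1 lie to the right in both genotypes (0.49 to 0.84) and Npc1 and Arsa to the left (−0.70 to −0.59).

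Other genes of the lysosomal system were read from 5 further lists. At E10.5, 23 other hydrolases were measured, of which Ctso, a cathepsin, rose by 0.78 (SE 0.15, adjusted p = 0.00833), and Ifi30, a thiol reductase, and Dnase2a, an acid DNase, fell by 0.70 (SE 0.12, adjusted p = 0.00361) and 0.67 (SE 0.14, adjusted p = 0.0115). Ifi30 also fell at E9.0, by 1.10 (SE 0.12, adjusted p = 0.00207). That made 3 of 23 (13.0%) at E10.5, against 7.28% of all genes, and 1 of 23 (4.35%) at E9.0, against 1.18%. Ifi30, Ctso and Tmem192, below, were called whichever array was left out, and the Dnase2a call was lost without E10.5 wild type replicate 2 (adjusted p = 0.0510).

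Among 16 other membrane proteins, Tmem192 fell by 0.48 at E10.5 (SE 0.09, adjusted p = 0.00694). Among 15 genes of mannose 6-phosphate tagging and sorting, Igf2r, the large mannose 6-phosphate receptor, rose by 0.66 (SE 0.14, adjusted p = 0.0135). Gnptab, which makes the tag, fell by 0.49 (SE 0.14, adjusted p = 0.0473), and Ap1s1, an adaptor subunit, fell by 0.35 (SE 0.08, adjusted p = 0.0251). The second Igf2r probe set differed by 0.07. The Igf2r call was lost without E10.5 wild type replicate 3 (adjusted p = 0.0567), the Ap1s1 call without any of 5 E10.5 arrays (knockout replicate 3 being the exception), and the Gnptab call was kept in 2 of the 12 such fits, without E9.0 or E10.5 knockout replicate 3. Among 18 genes of the TFE factors and mTORC1, Fnip1 fell by 0.40 (SE 0.10, adjusted p = 0.0272), a call lost without any of 5 E10.5 arrays (knockout replicate 1 being the exception), and its second probe set differed by −0.08. Second probe sets of Ctso, Tmem192 and Gnptab differed by 0.41, −0.35 and −0.40, with the signs above and uncalled (adjusted p = 0.402, 0.0521 and 0.166). Fitted on the E10.5 arrays alone, Igf2r, Ap1s1, Gnptab and Fnip1 were not called (adjusted p = 0.0664, 0.0938, 0.125 and 0.0908). At E9.0 no gene of these 3 lists was called by limma, with 2, 3 and 3 at an unadjusted p under 0.05.

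The proton pump that acidifies the lysosome had 15 subunits measured, and none was called in either knockout comparison by limma, with 1 at an unadjusted p under 0.05 at E9.0 and 7 at E10.5. At E10.5, 13 of the 15 were below 0 with a median of −0.24. The median pump deviation from the wild type mean was −0.20, −0.19 and −0.20 in knockout replicates 1, 2 and 3, so replicate 3 did not stand apart here as it did for the 32 genes. The E10.5 medians of the other lists were −0.16 for hydrolases, −0.19 for membrane proteins, −0.16 for sorting and −0.16 for TFE and mTORC1 genes, beside −0.01 for all genes.

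With stage, 13.4% of all genes rose and 8.86% fell in wild type, and 14.4% rose and 9.17% fell in the knockout. Of the 23 other hydrolases 7 (30.4%) rose and none fell in each genotype. In wild type Ggh rose by 1.35, Gm2a by 1.28, Creg1 by 1.10 and Aga by 0.34, and in the knockout Ggh rose by 1.44, Gm2a by 1.10, Ifi30 by 0.78 and Aga by 0.42. Of the membrane proteins 4 rose and 2 fell in wild type, among them Lmbrd1 (0.50), Ostm1 (0.52), Mfsd8 (0.51) and Cd164 (−0.36), and 3 rose and 3 fell in the knockout, among them Lmbrd1 (0.46), Mfsd8 (0.49), Cd164 (−0.41) and Tpcn1 (−1.02). Pump subunits went both ways: Atp6v0e rose by 0.74, Atp6v1h by 0.70 and Atp6v1f by 0.44 and Atp6v0a2 fell by 1.10 in wild type, and in the knockout Atp6v0e and Atp6v1h rose by 0.45 and 0.36 while Atp6v0a1 and Atp6v0a2 fell by 1.36 and 0.57.

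Of the 15 sorting genes 4 fell and 2 rose with stage in wild type (40.0% called). In the knockout 5 fell and none rose (33.3%). Of all genes, 22.2% were called in wild type and 23.6% in the knockout. Of the 10085 genes with a mean of at least 6, 37.2% and 38.9% were. In wild type Igf2r fell by 0.85, Gnptab by 0.59, Nagpa by 0.47 and Sort1 by 0.35. In the knockout Gnptab fell by 1.00, Igf2r by 0.54, M6pr by 0.45, Gga3 by 0.46 and Nagpa by 0.41. Of the 18 TFE and mTORC1 genes 4 rose and 3 fell in wild type (38.9% called). Lamtor2 (0.88), Lamtor4 (0.58), Fnip1 (0.57) and Rragd (−0.78) had the smallest p values there. In the knockout 3 rose and 6 fell (50.0%), with Mtor (−0.57), Rragd (−1.05), Lamtor2 (0.88) and Flcn (−0.66) at the smallest p values. Second probe sets of Igf2r, Cd164, Mfsd8, Atp6v1h, Sort1, Nagpa and Mtor did not share these signs in at least 1 genotype. With the mean of all probe sets the wild type calls of Cd164, Mfsd8, Igf2r, Sort1, Atp6v1h and Fnip1 were lost, as were the knockout calls of Cd164, Lmbrd1, Mfsd8, M6pr, Igf2r, Nagpa, Atp6v1h and Mtor, with adjusted p values from 0.0699 (Mtor) to 0.858 (Atp6v1h). In fits that left out 1 array Nagpa and Sort1 in wild type were each called in 9 of 12 and Aga in 11, and in the knockout Gga3, Nagpa and Atp6v0a2 in 8, Igf2r, Lmbrd1 and Mfsd8 in 10, and Atp6v1h and Flcn in 11. The fit on the 2 knockout groups alone did not call Mfsd8, Igf2r, Gga3, Nagpa or Atp6v0a2 (adjusted p = 0.0630, 0.0533, 0.0750, 0.0993 and 0.0795).

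**Figure D5:**
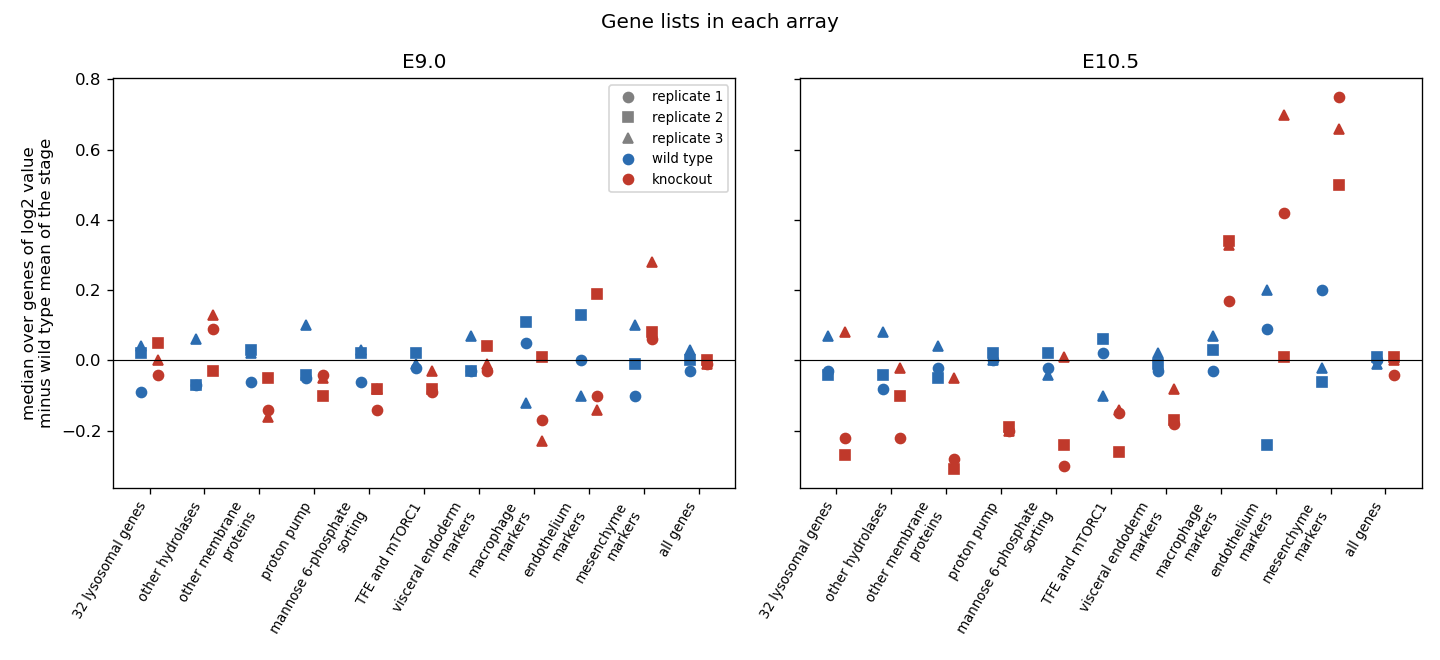
Median over the genes of each list of the log2 value minus the wild type mean of the stage (vertical axis) in each array at E9.0 and E10.5, with colour for genotype and shape for replicate. At E10.5 knockout replicates 1 and 2 of the 32 genes lie at −0.22 and −0.27 and replicate 3 at 0.08, the proton pump medians of all 3 knockout arrays lie near −0.20, and mesenchyme markers lie above the wild type arrays.

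Marker genes of the yolk sac's cell types also differed at E10.5. Of 14 visceral endoderm markers Alb fell by 2.22 (adjusted p = 0.000113) and Cubn by 0.36 (adjusted p = 0.0353), while 4 of the 14 were above 0, up to 1.04 for Sox17 (adjusted p = 0.0626), and the median was −0.14. All 7 endothelial markers were above 0, with a median of 0.37, and Pecam1 rose (0.86, adjusted p = 0.0453). Their median deviation from the wild type mean was 0.42, 0.01 and 0.70 in knockout replicates 1, 2 and 3. All 7 erythroid markers were below 0, with a median of −0.20, and Epb42 fell by 1.25 (adjusted p = 0.0315). The erythroid deviation was −0.65, 0.04 and −0.19 in the same 3 arrays, so replicate 2 did not share it. The 6 parietal endoderm and trophoblast markers were all above 0, with a median of 0.42, and none was called by limma, with 0 at an unadjusted p under 0.05. Mesenchyme markers rose in 3 of 7 (Acta2, Tagln and Vim), with a mean level of 9.82 to 10.34 in the knockout arrays and 9.51 to 9.71 in wild type. The cardiac genes Myl7 and Tnnt2, 2 of 7 embryo markers, rose by 3.21 and 1.92. The median deviation of these 7 was 1.73 in knockout replicate 1, against 0.27 and 0.41 in replicates 2 and 3. Of all genes 4.12% were called higher at E10.5 and 3.16% lower. Macrophages, which are rich in lysosomes, had 3 of 10 markers rise (Csf1r, Cx3cr1 and Tyrobp) and 1 fall (Fcgr3), with mean levels of 6.94 to 7.17 in the knockout and 6.94 to 7.04 in wild type. The mean levels overlapped, but the median deviations did not. These were 0.17, 0.34 and 0.33 in knockout replicates 1, 2 and 3, and −0.03, 0.03 and 0.07 in wild type. Of the 10 markers 7 were above 0 and 3 below. With stage, 9 of the 10 macrophage markers rose in wild type and 10 of 10 in the knockout, with median changes of 1.25 and 1.29. The part of these other cell types in the changes of the 32 genes was not tested.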

How the data were processed

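The log2 values the authors deposited come from RMA, as the submitters' processing notes name it, and its version is not given in the sources used here. RMA corrects background, brings all arrays to 1 distribution and summarises probes, so it removes a change shared by all transcripts and compresses dim probe sets. Of 45101 probe sets, 64 were controls, 34945 carried 1 gene symbol in the platform annotation, 932 several and 9160 none, and only those with 1 symbol were used. The brightest probe set per gene gave 18193 genes.

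limma 3.58.1 in R 4.3.3 fitted each gene's 12 values with a mean for each of the 4 groups and empirical Bayes moderation (8 residual and 4.56 prior degrees of freedom), and p-values are two-sided and Benjamini-Hochberg adjusted over all genes of a comparison, with a threshold of 0.05. No detection calls were used here. The number of arrays, 3 per group, limits the precision, with a median SE of 0.126. Groups and replicate numbers came from the sample titles. Alternatives changed the probe set rule, scaling, dim-gene filter, moderation, groups fitted, blocks and arrays left out.

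The 32 genes and the lists were chosen with earlier results of these data known. Values per array are given for every gene of the 32 called in a knockout comparison and for Lamp1, Lamp2, Ctsd, Npc1, Tfeb and Mcoln1. Array values of Ctsh, Hexa, Gla, Psap and Scarb2 were added after their values were seen. From each further list all called genes are named, or the 4 with the smallest p where more than 5 were called. Some genes of the lists are not reported here.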

Additional observations from a re-analysis of the deposited data

Results flagged for a closer look

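For 3 marker genes outside the 32 lysosomal genes, the knockout difference at E10.5 departed from that at E9.0 by limma's test of the difference. For Alb, made by endoderm, it was -2.27 (adjusted p = 0.00987), and Alb fell by 2.22 at E10.5. For Tyrobp, a myeloid adaptor, it was 1.09 (adjusted p = 0.0363), and for Tnnt2, a cardiac troponin, 2.95 (adjusted p = 0.0436). No formal outlier test was run on groups of 3 arrays.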

How the results depend on the processing

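Fits over only the 2 groups compared called 0 of the 32 genes at E9.0 and 0 at E10.5 by limma (6 and 8 at an unadjusted p under 0.05), against 1 and 4. At E9.0 the count was 3 with replicate 3 as a batch block and 0 within replicates 1 and 2 (5 at an unadjusted p under 0.05). With stage in the knockout it was 13 under each of these, against 8. Second-brightest probe sets, present for 21 genes, gave 5 in wild type and 4 in the knockout with stage, against 8 and 8. Of the 9010 genes with such a probe set, 16.1% and 16.3% were called. Leaving out 1 array gave 0 to 1 genes at E9.0, 0 to 4 at E10.5, 5 to 10 with stage in wild type and 6 to 12 in the knockout. The knockout effect that differs with stage was called for 0 of the 32 genes under every alternative run, with 1 to 7 at an unadjusted p under 0.05, and could not be fitted on 2 groups. Over all genes, where the counts were 215 at E9.0, 1325 at E10.5 and 34 for the stage dependence, fits on 2 groups gave 61 and 773, the batch block 476, 2081 and 91, replicates 1 and 2 alone gave 69 at E9.0, and leaving out 1 array 33 to 290, 693 to 1630 and 12 to 90. Second-brightest probe sets, for 9010 genes, gave 36, 331 and 2, and the filter on dim genes gave 1 for the stage dependence. The cause of these moves was not tested.

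Replicate numbers are shared by the groups, but same-numbered arrays did not all deviate together: correlations were 0.034, 0.225 and 0.241 at E9.0 and 0.255, 0.067 and 0.401 at E10.5, and in 4 of the 6 pairs the best match was the array of the same number. The numbers were therefore not taken to pair the samples. With a replicate block the counts were 2 at E9.0 (Lipa added), 4 at E10.5, 0 for the stage dependence, and 11 and 12 with stage. Of all genes, 26.8% in wild type and 29.0% in the knockout were called with stage under this block, against 22.2% and 23.6%. Over all genes the block gave 349 calls at E9.0 against 215, 1814 at E10.5 against 1325 and 115 for the stage dependence against 34. The block ended the Gnptab call at E10.5 (adjusted p = 0.0717).

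Signs that turned are given next, and where no p is given the turned value itself was not past the threshold. With the mean of all probe sets they were, at E9.0 knockout minus wild type, Ctsb -0.16, Ctsc -0.22 and Gla -0.15, and with stage Ctsb -0.23 in wild type (adjusted p = 0.0448) and -0.38 in the knockout (adjusted p = 0.00379) and Atp6v1h -0.05 in wild type. With the second-brightest probe set they were Ctsc -0.39 and Gla -0.44 at E9.0, and Gusb 0.09 and Ppt1 0.08 at E10.5. With stage in wild type they were Cd164 0.03, Mfsd8 -0.11, Igf2r 0.35, Sort1 0.00 and Atp6v1h -0.81. With stage in the knockout they were Ppt1 0.47 (adjusted p = 0.0275), Cd164 0.08, Mfsd8 -0.13, Igf2r 0.13, Nagpa 0.03, Atp6v1h -0.24 and Mtor 0.04. Within replicates 1 and 2 Psap was -0.26 and Npc1 -0.11 at E10.5. Leaving out 1 array gave Lgmn -0.28 to 0.02 and Ctsa -0.16 to 0.16 at E9.0, Galns -0.27 to 0.06, Psap -0.23 to 0.32 and Npc1 -0.06 to 0.29 at E10.5, and Tfeb -0.24 to 0.02 with stage in wild type. A turn smaller than the SE of the fit was not counted. The RMA scale gives no depth, and 3 pools a group limit what can be called.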
